A study of Mus musculus with 2 samples.

Results

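The genes of glucose uptake and glucose phosphorylation were described across the endocrine cell classes of mouse pancreatic islets. The set held 6 genes, chosen by name: the glucose carriers Slc2a2 and Slc2a1, the glucose-6-phosphatase subunit G6pc2, and the hexokinases Hk1, Hk2 and Hk3. All 6 were among the 22383 features of the single-cell count matrices, and no other feature was a member.

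Single-cell RNA sequencing was done on islets of mice aged 5 weeks, with 1 library per group. The library labelled wildtype, called control, came from Cre-negative littermates. The library labelled TBL/RBKO, written TBL/RβKO, came from mice in which Cre is inserted at the Ins1 gene and both Tbl1x and Tbl1xr1 are flanked by loxP sites, so that deletion is limited to cells that have used the Ins1 promoter. These genes encode paired transcriptional co-factors. Each library held cells of 150 islets pooled from 4 mice, and all islets were cultured at 37 °C with 10% serum for a night before dissociation. The comparison asked how the β-cell's genes for taking up and phosphorylating glucose differed between the libraries. No group had a second library, so the spread between replicates is unknown, no test was run, and every interval given in parentheses is a 95% interval for counting error alone.

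Glucose enters rodent β-cells mainly through the low-affinity carrier GLUT2, the product of Slc2a2, while GLUT1, the product of Slc2a1, is the high-affinity carrier of endothelium, stroma and many other cells. Glucose is trapped as glucose 6-phosphate by phosphorylation, and the islet-specific catalytic subunit encoded by G6pc2 reverses that step. The hexokinases encoded by Hk1, Hk2 and Hk3 have a high affinity for glucose and work even when glucose is low, and Hk1 is counted among the genes that mature β-cells keep off.

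The control matrix held 241434108 UMIs, tags that each mark 1 captured transcript, in 7067 barcodes, and the other matrix 185062206 UMIs in 5833 barcodes. Barcodes with more than 2500 detected genes and under 10% mitochondrial UMIs were kept, which left 4747 and 4179, and 14 barcode sequences occurred in both libraries. A kept barcode joined the class of its largest hormone, where Ins1 and Ins2 together, Gcg, Sst or Ppy reached 100 UMIs per 10000. The insulin class, the barcodes richest in β-cells, held 2877 control barcodes and 1338 of the other library, the Gcg class 1284 and 1546, the Sst class 223 and 374, the Ppy class 259 and 495, and 104 and 426 had no hormone at that level. All 8 β-cell markers on the list reached 10 CPM (UMIs of a gene per 1000000 UMIs of the class) in the insulin class of both libraries, and all 8 α-cell markers did so in the Gcg class. Of the δ-cell list 5 of 6 did so in the Sst class, and of the PP-cell list 4 of 5 in the Ppy class. Each list held the hormone that defines its class, and 6 or 7 of the 8 β-cell markers also reached 10 CPM in the Gcg, Sst and Ppy classes. These counts therefore do not by themselves tell the classes apart. Median depth in the insulin class was 53346 and 67897 UMIs.

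The check of the labels gave a mixed answer. Cre UMIs on the plus strand numbered 0 in the control, which allows up to 0.0165 CPM in its insulin class, the level of 3 UMIs, and 3107 in the insulin class of the other library, where 274 barcodes held them. Tbl1x, however, stood at 96.9 CPM in the control insulin class and at 351 CPM in the other, and Tbl1xr1 at 20.0 and 129 CPM, against the direction of a deletion. UMIs were counted over whole genes and may come from transcripts that lack the floxed part, and no setting for intronic reads is given in the sources used here, so that unspliced RNA may be included in these and all other counts. For these reasons the second library is called the library labelled TBL/RβKO throughout.

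Insulin took 49.6% of all UMIs of the control insulin class and only 27.9% of those in the other library, which left more room for every other gene there. Ratios are in CPM unless said otherwise, and where it bears on the reading they are also given on a hormone-free scale, per 1000000 UMIs left once hormone and mitochondrial UMIs are taken out of the total. The median log2 ratio over 13943 genes with at least 50 UMIs was 0.31 in CPM and -0.14 on the hormone-free scale. A log2 ratio of 1 or more, or of -1 or less, was called a difference. Such calls took 12.5% of the genes upward and 2.52% downward in CPM, and 6.72% upward and 5.24% downward on the hormone-free scale. Of the 6 members, all of which had at least 50 UMIs, 1 was called lower (Slc2a2) and 1 higher (Hk1) in CPM. On the hormone-free scale 2 were called lower (Slc2a2 and Hk3) and 0 higher.

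**Figure D1:**
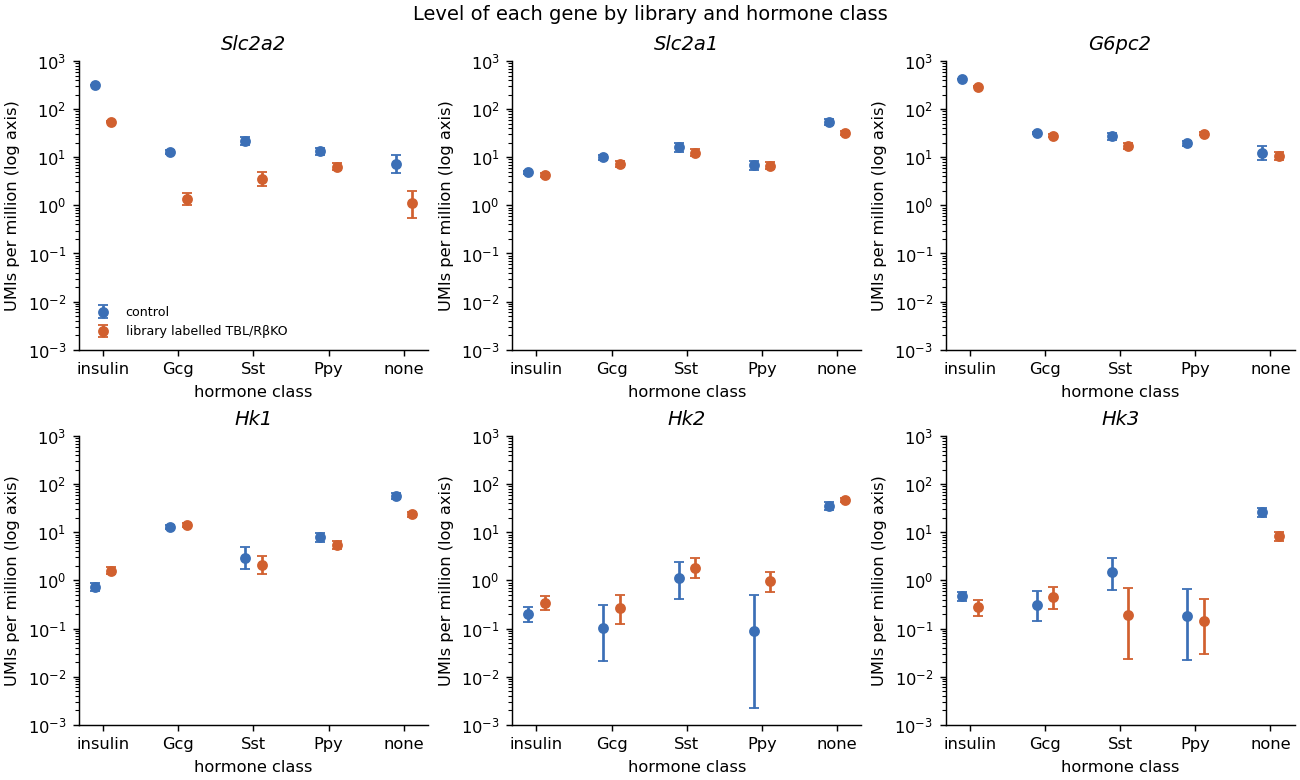
CPM (log axis) of each member in 5 hormone classes, with control in blue, the library labelled TBL/RβKO in orange and bars for 95% Poisson intervals. Slc2a2 stood lower in orange in all 5 classes, whereas G6pc2 in the insulin class differed far less (423 against 294).

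Slc2a2 (ENSMUSG00000027690, chromosome 3, 28752051 to 28785508, plus strand, 11 exons) was the member that differed most in the insulin class. It had 57504 control UMIs and 5582 in the other library, which is 316 CPM (313 to 318) against 55.3 CPM (53.8 to 56.7). The log2 ratio was -2.51 (-2.55 to -2.47), or 5.71-fold lower, and -2.97 on the hormone-free scale, or 7.81-fold lower. Only 15 of the 13943 genes had a lower CPM ratio. G6pc2 (ENSMUSG00000005232, chromosome 2, 69041417 to 69058185, plus strand, 5 exons) had 77110 and 29644 UMIs, or 423 CPM (420.3 to 426) and 294 CPM (290.2 to 297). Its log2 ratio was -0.53 (-0.55 to -0.51) in CPM and -0.98 on the hormone-free scale, so it missed the limit for a call on both.

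The promoters of these 2 genes are shown because both genes were lower in the insulin class but to an unequal degree. Each window runs from 250 bases before to 50 bases after the start of the canonical transcript of GENCODE M39 on GRCm39, 5′ to 3′ on the plus strand. Slc2a2 lies at chr3:28751801-28752100 and G6pc2 at chr2:69050065-69050364.
Slc2a2: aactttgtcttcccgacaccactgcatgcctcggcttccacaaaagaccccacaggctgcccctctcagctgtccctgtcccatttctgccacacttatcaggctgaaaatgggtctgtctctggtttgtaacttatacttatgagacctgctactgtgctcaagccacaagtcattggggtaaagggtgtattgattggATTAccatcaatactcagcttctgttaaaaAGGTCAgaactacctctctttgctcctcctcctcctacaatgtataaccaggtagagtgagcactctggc
G6pc2: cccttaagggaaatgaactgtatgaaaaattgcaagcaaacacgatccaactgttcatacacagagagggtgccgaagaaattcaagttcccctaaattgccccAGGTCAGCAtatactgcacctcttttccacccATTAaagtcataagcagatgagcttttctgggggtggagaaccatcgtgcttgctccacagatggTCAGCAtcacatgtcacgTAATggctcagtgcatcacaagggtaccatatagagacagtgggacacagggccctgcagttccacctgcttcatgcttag
Capitals mark matches, on either strand, to AGGTCA (a nuclear receptor half-site), to TAAT (a homeodomain core) and to TGCTGA (a half-site of Maf factors). The Slc2a2 window held 1 AGGTCA match, at -20 from the start, and 1 TAAT match, at -50, with 0 matches to TGCTGA. The G6pc2 window held 1 AGGTCA match, at -146, which overlaps a TGCTGA match at -143, a second TGCTGA match at -49, and 2 TAAT matches at -114 and -31. Among 21757 windows of protein-coding genes, 15.1% held AGGTCA, 57.7% TAAT and 17.9% TGCTGA. The Slc2a1 window held 0 matches to all 3 motifs. These are matches of letters in a short window and say nothing about binding.

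The lower Slc2a2 level was spread over most barcodes of the insulin class. In the control, 94% (93.1 to 94.8) of barcodes held a Slc2a2 UMI, against 48.9% (46.2 to 51.6) in the library labelled TBL/RβKO in spite of its greater depth. Thinned to 5000 UMIs per barcode, the shares were 67.9% and 17.7%. In barcodes without a hormone, which should lack the transcript, the unthinned shares were 16.3% and 2.35% at median depths of 25560 and 17474 UMIs, below those of the insulin class in each library. Per 10000 hormone-free UMIs, the median barcode held 7.05 Slc2a2 UMIs in control and 0 in the other library, whose 90th percentile was 3.85. As many as 77.5% of the barcodes labelled TBL/RβKO lay below the control's 10th percentile of 1.06, and 5.23% lay above its median. The 2 libraries thus overlapped in a minority of barcodes.

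G6pc2 was retained in far more barcodes. A G6pc2 UMI was found in 96.2% and 92% of the insulin class barcodes, and in 79.5% and 60.5% after thinning. The median barcode held 10.3 and 3.79 G6pc2 UMIs per 10000 hormone-free UMIs, and 18.5% of the barcodes labelled TBL/RβKO lay above the control median. Barcodes with 5 or more G6pc2 UMIs and 0 Slc2a2 UMIs made up 1.15% (0.791 to 1.61) of the control insulin class and 32.4% (29.9 to 34.9) of the other. The opposite combination, 5 or more Slc2a2 UMIs with 0 G6pc2 UMIs, was found in 1 barcode of each library. A carrier without detected phosphatase transcript was thus rare, and a phosphatase transcript without detected carrier was common in 1 of the 2 libraries.

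**Figure D2:**
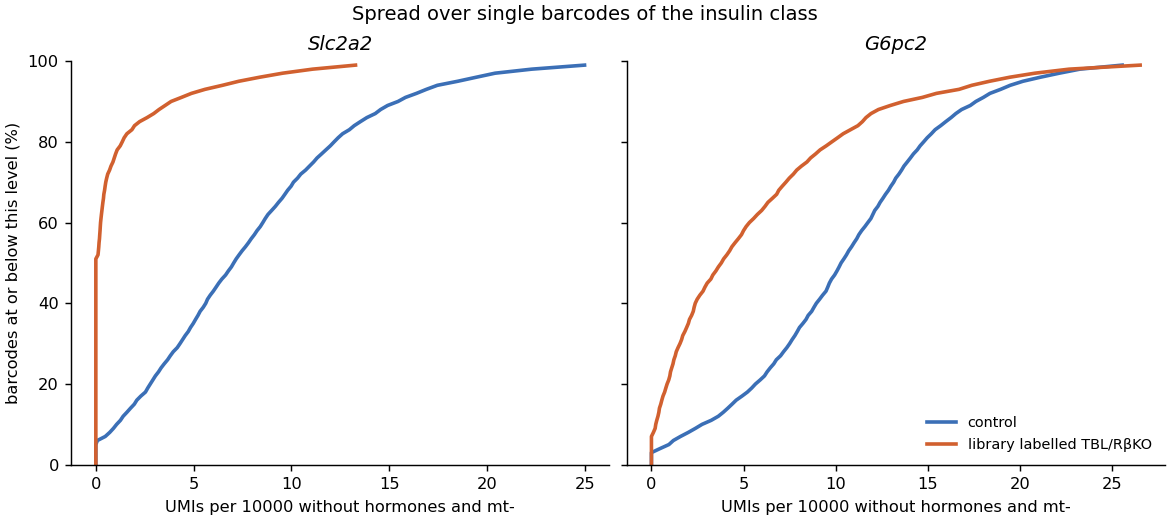
Percent of insulin class barcodes (vertical) at or below each level of UMIs per 10000 hormone-free UMIs (horizontal), with control in blue and the library labelled TBL/RβKO in orange, up to the 99th percentile. The orange Slc2a2 curve starts at 51.1% of barcodes with 0 UMIs against 6.01% in blue, while the G6pc2 curves meet at high levels.

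The ratio of the 2 transcripts within a library does not depend on the total that scales CPM. In the insulin class there were 74.6 Slc2a2 UMIs for every 100 G6pc2 UMIs in control barcodes and 18.8 in those labelled TBL/RβKO, a log2 difference of -1.99 (-2.03 to -1.95). Since 3′ capture differs between genes, the values compare libraries and not the amounts of the 2 transcripts. In the control the value was 75.5 in barcodes with 1 hormone and ranged from 73.5 to 96.9 over 4 levels of insulin. In the library labelled TBL/RβKO it was 6.25 at 100 to 1000 insulin UMIs per 10000, 12 at 1000 to 3000, 21.5 at 3000 to 5000 and 29.4 at 5000 or more. The control ratio was nearly level across insulin, and the other was higher at each higher level of insulin but at its highest was below the lowest control value.

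At matched insulin, Slc2a2 was lower in the library labelled TBL/RβKO at every level. Among barcodes with 5000 or more insulin UMIs per 10000, 1532 in control and 141 in the other library, Slc2a2 stood at 311 and 134 CPM, 2.33-fold lower. At 3000 to 5000 insulin UMIs (1030 and 380 barcodes) it was 3.96-fold lower. At 1000 to 3000 (152 and 574) it was 7.09-fold lower and at 100 to 1000 (163 and 243) 9.98-fold lower. The gap was thus widest where insulin was lowest. On the hormone-free scale the levels labelled TBL/RβKO were 9.98, 42.7, 185 and 374 UMIs per 1000000 at rising insulin, against 84.7, 312, 749 and 878 in the control. Control barcodes of the lowest level had a median of 9271 UMIs, far below the class median, and 54 of the 163 carried markers of another cell type. Without such barcodes the log2 ratio there was -3.57 against -3.32 with them.

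G6pc2 at matched insulin differed little from 1000 insulin UMIs per 10000 upward. Its log2 ratio in CPM was 0.10 at the highest insulin level, -0.17 at 3000 to 5000 and -0.11 at 1000 to 3000. At the lowest level it was 0.64 (0.40 to 0.88), and 0.38 (0.12 to 0.66) without barcodes carrying markers of another type. The hormone-free scale gave 0.09, -0.20, -0.16 and 0.87 from the highest level to the lowest. In barcodes with insulin as the only hormone, 2409 in control and 525 in the other library, G6pc2 stood at 461 and 460.2 CPM, a log2 ratio of 0.00 (-0.03 to 0.02). Slc2a2 in the same barcodes stood at 348 and 109 CPM, a log2 ratio of -1.67. On the hormone-free scale G6pc2 in these barcodes was still lower, at 1159 and 909 UMIs per 1000000, a log2 ratio of -0.35 (-0.37 to -0.33), and Slc2a2 had one of -2.02. Whether G6pc2 differed in barcodes with insulin alone therefore depended on the scale, while Slc2a2 was lower on both.

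**Figure D3:**
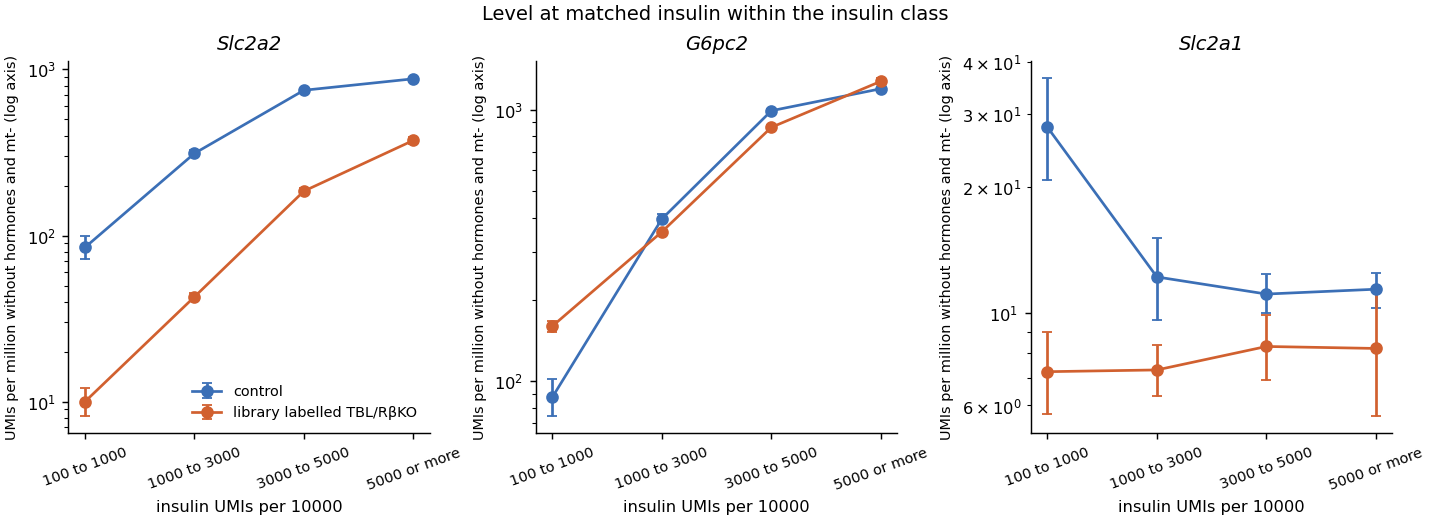
UMIs per 1000000 hormone-free UMIs (log axis, with its own range in each panel) at 4 levels of insulin in the insulin class, with control in blue, the library labelled TBL/RβKO in orange and bars for 95% Poisson intervals. The Slc2a2 lines stay apart from 84.7 against 9.98 to 878 against 374, and the G6pc2 lines run close together from 1000 insulin UMIs per 10000 upward.

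Barcodes with a second hormone at 100 or more UMIs per 10000 made up 16.3% of the control insulin class and 60.8% of the other, and they had less Slc2a2 in both. With Gcg as the second hormone Slc2a2 stood at 181 CPM in the control and at 20.5 CPM in the library labelled TBL/RβKO. With Sst it stood at 191 and 24.3 CPM, and with Ppy at 141 and 20.3 CPM. Those with Ppy numbered 167 in control and 691 in the other library. In all 3 kinds G6pc2 was closer between libraries, with log2 ratios of -0.48, -0.46 and -0.31 in CPM and of -0.79, -0.73 and -0.56 on the hormone-free scale. Among barcodes of the library labelled TBL/RβKO with 0 Slc2a2 UMIs, 70.5% had a second hormone and the median insulin was 1630 per 10000. Among those with 10 or more Slc2a2 UMIs, 25.4% had one and median insulin was 4405. True mixed-hormone cells and doublets cannot be told apart by these counts.

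Cre UMIs did not mark the barcodes with least Slc2a2. In the library labelled TBL/RβKO, the 274 insulin class barcodes with a Cre UMI held Slc2a2 at 64.6 CPM and G6pc2 at 384 CPM, and the 1064 without one held 52.3 and 265 CPM. Both groups lay below the control level of Slc2a2. A barcode without a Cre UMI is not shown to lack Cre. Barcodes with a Cre UMI were deeper, with a median of 81403 UMIs against 64693, and Cre is read from the Ins1 gene. The split thus also sorts barcodes by depth and may sort them by Ins1 level, and it does not show which cells carried the deletion.

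Within a library, the 2 genes varied together across barcodes of the insulin class. On the hormone-free scale the Pearson correlation of Slc2a2 with G6pc2 was 0.66 over 2877 control barcodes and 0.53 over 1338 of the other library, where all points share a library. Over the 10 sums of 5 classes by 2 libraries, the 5 genes most like Slc2a2 in log2(CPM + 1) were Ins1 (r = 0.978), Car10 (0.969), Mafa (0.957), Sytl4 (0.946) and Sgcz (0.936), of 11415 genes compared. Mafa, a transcription factor of mature β-cells, stood at 463 and 85.5 CPM in the insulin class, a log2 ratio of -2.44. The 5 most like G6pc2 were Tmem215 (0.979), Ins2 (0.966), Gad1 (0.953), Fam151a (0.952) and Sytl4 (0.947). Ins1 and Ins2 together defined the insulin class, so any gene found mostly in that class resembles them in these sums by construction. Their ranks are therefore no result about Slc2a2 or G6pc2. Sytl4 was the only gene on both lists.

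In the Gcg class 4 members passed 50 UMIs, of which 1, Slc2a2, was called lower and 0 higher, where 0.792% and 2.22% of 12632 genes were so called. In the Sst class 1 of 3 members was called lower, again Slc2a2, and 0 higher, against 0.646% and 1.36% of 11142 genes. In the Ppy class 1 of 4 was called lower, once more Slc2a2, and 0 higher, against 0.969% and 8.16% of 11760 genes. Slc2a2 was at 12.8 and 1.37 CPM in the Gcg class, 22 and 3.56 CPM in the Sst class and 13.3 and 6.34 CPM in the Ppy class.

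In the Gcg class the share of barcodes with Slc2a2 did not stand apart from that in barcodes without a hormone. A share of 21.3% (19.1 to 23.6) of control barcodes and 2.52% (1.8 to 3.43) of the others held a UMI of it, beside 16.3% (9.82 to 24.9) and 2.35% (1.13 to 4.27) of barcodes without a hormone. These shares were not distinguishable at this depth. In CPM the control Gcg class stood higher, at 12.8 (11.5 to 14.2) against 7.41 (4.7 to 11.1) without a hormone. In the other library the intervals overlapped, at 1.37 (1 to 1.83) and 1.1 (0.55 to 1.97) CPM. Per 10000 insulin UMIs in the same barcodes, Slc2a2 in the Gcg class numbered 11.9 in control and 2.2 in the other library. The insulin class itself gave 6.37 and 1.98, and barcodes with fewer than 1000 genes, taken as a source of free RNA, 20.6 and 1.47. Ins1, which α-cells do not use, had log2 ratios of -2.54, -2.44 and -1.47 in the Gcg, Sst and Ppy classes, next to -3.22, -2.63 and -1.07 for Slc2a2. Ins2, the other insulin gene, had log2 ratios of -0.47, -0.70 and 0.34 in the same classes. Slc2a2 thus had lower ratios than Ins1 in the Gcg and Sst classes and a higher one in the Ppy class, it had lower ratios than Ins2 in all 3, and in the Ppy class it differed in the opposite direction from Ins2. Per 10000 insulin UMIs it numbered 19.2 and 6.15 in the Sst class and 7.34 and 3.38 in the Ppy class, lower in the library labelled TBL/RβKO in both. After subtraction of a free RNA profile 11.4 of 368 control UMIs and 38.3 of 46 others remained in the Gcg class, and the log2 ratio was 1.49. Without subtraction it was -2.94 in single-hormone barcodes and -3.09 in those with fewer than 100 insulin UMIs per 10000. The direction thus depended on the subtraction, so no difference in Slc2a2 is drawn for that class. In the Ppy class subtraction likewise gave a log2 ratio of 2.66, from 10.5 and 128 UMIs. In the Sst class Slc2a2 stayed lower, at -1.56 from 51.6 and 34.6 UMIs.

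G6pc2 in the Gcg class exceeded that background in both libraries. It had 924 and 943 UMIs, or 32.1 CPM (30.1 to 34.2) and 28.1 CPM (26.3 to 30.0), with a log2 ratio of -0.19 (-0.32 to -0.06) that became 0.39 once free RNA was subtracted. Per 10000 insulin UMIs it numbered 30.0 and 45.2 there, against 8.54 and 10.5 in the insulin class and 19.8 and 6.38 in barcodes with fewer than 1000 genes. Its share of barcodes in the Gcg class was 40.1% and 30.3%, beside 31.7% (22.9 to 41.6) and 15.3% (12 to 19) without a hormone, so the excess in barcodes was clear only in the library labelled TBL/RβKO. In the Sst class G6pc2 stood at 27.2 and 17.1 CPM, a log2 ratio of -0.68 that became 0.03 in the same way. In the Ppy class it stood at 19.5 and 30.9 CPM, a log2 ratio of 0.66 (0.44 to 0.89) that became 1.94 with free RNA subtracted and was 0.34 (0.12 to 0.57) on the hormone-free scale. As counted, the Ppy class was the only hormone class in which G6pc2 stood higher in the library labelled TBL/RβKO, at 182 and 188 insulin UMIs per 10000. Among its barcodes with fewer than 100 insulin UMIs per 10000, a limit set after the data had been seen, the log2 ratio was 0.07.

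Slc2a1 (ENSMUSG00000028645, chromosome 4, 118965908 to 118996365, plus strand, 10 exons) was not called different in any hormone class taken as a whole. In the insulin class it had 891 and 438 UMIs, or 4.89 CPM (4.58 to 5.22) and 4.34 CPM (3.94 to 4.76), with a log2 ratio of -0.17 (-0.34 to -0.01). The hormone-free scale gave -0.63 (-0.79 to -0.46). A UMI was found in 24.4% and 23.4% of barcodes, and in 2.82% and 2.47% after thinning. Thinned to 5000 hormone-free UMIs instead, the shares were 6.2% (5.35 to 7.15) and 3.81% (2.85 to 4.98). At matched insulin the log2 ratio was -2.18 (-2.70 to -1.65) at 100 to 1000 insulin UMIs, -0.69 (-1.07 to -0.30) at 1000 to 3000, -0.39 (-0.69 to -0.09) at 3000 to 5000 and -0.45 (-1.01 to 0.06) at 5000 or more. Slc2a1 was thus lower in the library labelled TBL/RβKO at each level, with an interval that included 0 at the highest. The gap was widest at the lowest level, where the control stood at 24.7 CPM, beside 7.37, 5.23 and 4.03 CPM at rising insulin. Control barcodes of that level had a median of 9271 UMIs, and 54 of the 163 carried markers of another cell type. Without such barcodes the log2 ratio there was -2.15 (-2.84 to -1.43), from 26 control UMIs and 59 in the other library. In the Gcg class it stood at 9.93 and 7.24 CPM, a log2 ratio of -0.46. In the Sst class it stood at 16 and 12.4 CPM and in the Ppy class at 6.76 and 6.72 CPM, with intervals of the ratio that included 0 in both. The lower Slc2a2 was thus not accompanied by a higher level of this second carrier in any hormone class.

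Hk1 (ENSMUSG00000037012, chromosome 10, 62104621 to 62215687, minus strand, 18 exons) was scarce in the insulin class of both libraries. It had 133 UMIs in 100 of 2877 control barcodes and 161 UMIs in 101 of 1338 others, or 0.73 CPM (0.611 to 0.865) and 1.59 CPM (1.36 to 1.86). The log2 ratio was 1.13 (0.79 to 1.47), and 0.68 (0.33 to 1.02) on the hormone-free scale, where it was no longer called. In the library labelled TBL/RβKO 2 barcodes held 22 of the 161 UMIs. Without the 2 barcodes richest in Hk1 in each library, left out after the data had been seen, the log2 ratio was 1.01, and without those of the library labelled TBL/RβKO alone it was 0.92, below the limit for a call. The log2 ratio was 1.47 with the highest doublet scores removed and 1.32 without barcodes with markers of another type. Averaged over barcodes rather than summed it was -0.14, where barcodes of low depth weigh as much as the others. With each barcode thinned to 5000 UMIs the shares with a UMI were 0.904% (0.591 to 1.32) and 1.05% (0.573 to 1.75), from 26 and 14 barcodes. The higher Hk1 was therefore present in the sums, and the thinned shares rest on too few barcodes to decide whether it was present at equal depth. At matched insulin the log2 ratio was -3.82 (-4.62 to -3.05) at 100 to 1000 insulin UMIs, -0.09 (-0.75 to 0.62) and 0.09 (-0.69 to 0.83) at the middle levels, and 3.64 (2.70 to 4.61) at 5000 or more. The value at 100 to 1000 rests on 45 control UMIs and on 22 in the other library. Of the 163 control barcodes there, 54 carried markers of another cell type, and Hk1 was not computed at that level without them. The value at 5000 or more rests on 18 control UMIs and on 24 UMIs in the other library. Whether the 2 barcodes that held 22 UMIs lie at that level was not determined.

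In the Gcg class Hk1 was found in more barcodes and differed little. It had 367 and 472 UMIs, or 12.7 CPM (11.5 to 14.1) and 14.1 CPM (12.8 to 15.4), with a log2 ratio of 0.14 (-0.06 to 0.34). A UMI was found in 22.3% and 23.7% of the Gcg class barcodes, against 3.48% and 7.55% in the insulin class, at lower depth. In the Ppy class Hk1 stood at 7.84 and 5.48 CPM, a log2 ratio of -0.52 (-0.93 to -0.10). The Sst class had 16 and 22 UMIs and did not pass the limit of 50. In mixed barcodes of the insulin class with Gcg, Hk1 stood at 3.58 and 2.84 CPM, and in those with insulin alone at 0.343 and 0.985 CPM.

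Hk2 (ENSMUSG00000000628, chromosome 6, 82699740 to 82751469, minus strand, 18 exons) and Hk3 (ENSMUSG00000025877, chromosome 13, 55153798 to 55169276, minus strand, 19 exons) had few UMIs in endocrine barcodes. Hk2 had 36 and 35 UMIs in the insulin class, a log2 ratio of 0.81 (0.10 to 1.52), and Hk3 86 and 28, a log2 ratio of -0.77 (-1.44 to -0.14) that was -1.22 on the hormone-free scale. Apart from Hk3 in the library labelled TBL/RβKO, most of these UMIs lay in a few barcodes that also carried at least 3 markers of a non-endocrine type. Such barcodes numbered 67 of 2877 and 64 of 1338, and they held 91.7% and 62.9% of the Hk2 UMIs and 75.6% and 10.7% of the Hk3 UMIs. Without them the log2 ratio of Hk3 was 1.16, from 21 and 25 UMIs, and that of Hk2 3.03, from 3 and 13. For Hk1 the same barcodes held 24.1% and 16.8%, for Slc2a2 0.327% and 1.74%. In the Gcg, Sst and Ppy classes Hk2 had between 1 and 20 UMIs and Hk3 between 2 and 15, below the limit of 50, so that no difference is drawn. The last exon of Hk3 overlaps Unc5a on the opposite strand, as those of Slc2a2 and Slc2a1 do noncoding genes that were not among the features.

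Summed marker levels of other cell types in the insulin class differed between the libraries in both directions. The macrophage and endothelial sums were lower in the library labelled TBL/RβKO, and those of the other non-endocrine lists were higher. The 8 macrophage markers summed to 116 CPM in the control and to 43.9 CPM in the library labelled TBL/RβKO, and the 7 endothelial markers to 25.9 and 18.1 CPM. The 8 stromal markers summed to 23.6 and 80.4 CPM, and the 6 ductal markers to 285 and 949 CPM. All of these markers were above 0 in both libraries. Of the macrophage, endothelial, stromal and ductal markers 4, 0, 1 and 3 reached 10 CPM in the control, against 2, 0, 1 and 4 in the other. Their part in the hexokinase ratios was not tested beyond leaving out the barcodes that carried them.

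The barcodes without a hormone held more of Slc2a1 and of the 3 hexokinases than any hormone class did. They were named by the non-endocrine marker list with the largest share of their UMIs, if at least 3 of its genes were detected. Macrophage-like barcodes, 36 in control and 55 in the other library, held Hk2 at 74.1 and 69.6 CPM and Hk3 at 94.4 and 79.1 CPM. Endothelial-like barcodes (29 and 35) held Hk1 at 105 (86.7 to 126) and 78.2 CPM (55.3 to 107) and Slc2a1 at 66.1 and 35 CPM. Stromal-like barcodes (30 and 105) held Slc2a1 at 83.6 (66.4 to 104) and 39 CPM (32.9 to 45.8) and Hk2 at 42.3 (30.4 to 57.4) and 80.3 CPM (71.5 to 89.8). Hk3 was at 0 UMIs in stromal-like barcodes of both libraries, which allows up to 3.09 and 0.79 CPM, the level of 3 UMIs in each. Of these 3 types, Hk3 was thus highest in the macrophage-like and Hk1 in the endothelial-like barcodes of both libraries. For Hk2 the macrophage-like intervals were 56.8 to 95 CPM in control and 54.5 to 87.5 CPM in the other library. Each overlapped the stromal-like interval of its library, slightly in the control and widely in the other, so no single type is named highest for Hk2. In the whole class without a hormone, Hk1 was at 57.4 and 23.8 CPM and Hk3 at 26.1 and 8.31 CPM, with different shares of these types in the 2 libraries.

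**Figure D4:**
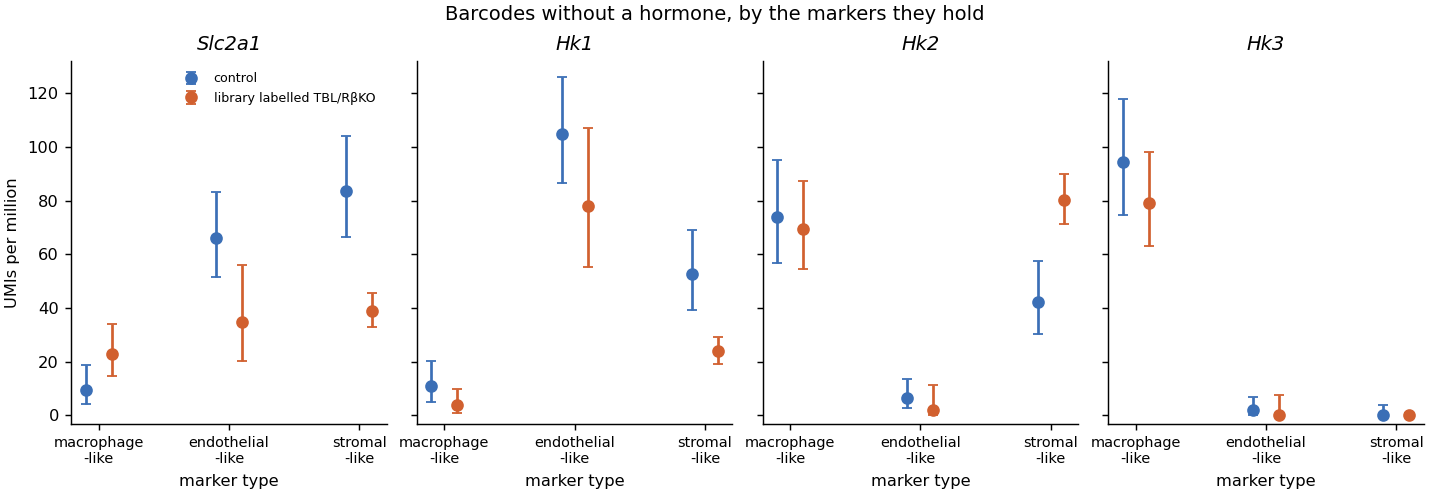
CPM of 4 members in macrophage-like, endothelial-like and stromal-like barcodes without a hormone, with control in blue, the library labelled TBL/RβKO in orange and bars for 95% Poisson intervals. Hk3 is confined to the macrophage-like barcodes of these 3 types apart from 2 UMIs in control endothelial-like barcodes, and Hk1 is highest in the endothelial-like ones.

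Of 41 other genes on a list of glucose carriers, sugar kinases and phosphatases, and users of glucose 6-phosphate, 40 were in the matrices and 33 passed 50 UMIs in the insulin class. In CPM 5 of the 33 were called higher and 2 lower, where 12.5% and 2.52% of all genes were so called. The median log2 ratio was 0.46, beside 0.31 over all genes. On the hormone-free scale 2 were called higher and 5 lower, against 6.72% and 5.24% of all genes. The median there was 0.01, beside -0.14 over all genes. Among the carriers Slc2a6 (137 and 259 UMIs) had a log2 ratio of 1.77, Slc5a10 (112 and 210) 1.76, Slc2a3 (74 and 97) 1.24 and the myo-inositol carrier Slc2a13 (3446 and 4234) 1.15. Slc5a1 had 46 and 8 UMIs, a log2 ratio of -1.67. The most sampled carrier on the list was the fructose carrier Slc2a5, with 20425 and 6915 UMIs and a log2 ratio of -0.71, which was -1.16 on the hormone-free scale and a call there. Slc2a3, which encodes the carrier GLUT3, was below 1 CPM in both libraries.

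Among the enzymes, Slc37a2, a glucose 6-phosphate exchanger, had 102 and 23 UMIs and a log2 ratio of -1.30, and glycogen synthase Gys1 1068 and 1453 UMIs and a log2 ratio of 1.30. Gpi1, which turns glucose 6-phosphate into fructose 6-phosphate, had 9276 and 8241 UMIs and a log2 ratio of 0.68, and phosphofructokinase Pfkl 4069 and 2326 UMIs and 0.04. G6pc3, the ubiquitous relative of G6pc2, had 2814 and 2763 UMIs and a log2 ratio of 0.82. The lowest log2 ratio on the list was that of Slc5a1, -1.67 in CPM, beside -2.51 for Slc2a2.

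**Figure D5:**
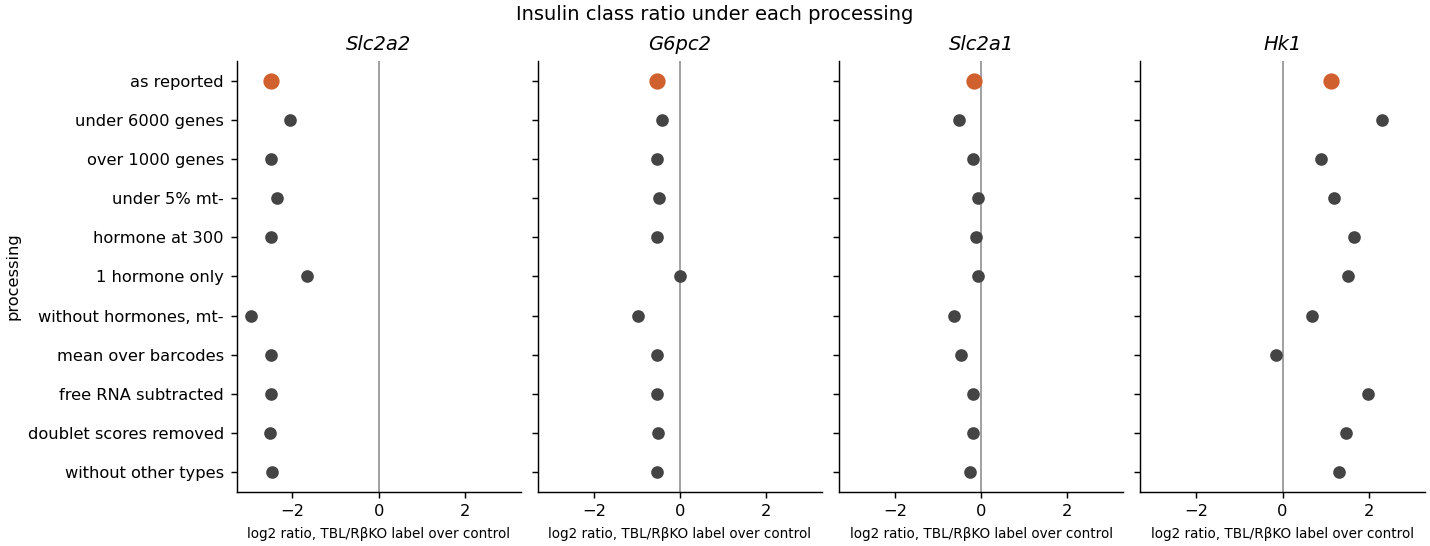
The log2 ratio of the library labelled TBL/RβKO over control in the insulin class for 4 members (horizontal), as reported (orange) and under 10 other ways of processing (grey, 1 row each). Slc2a2 stays between -2.97 and -1.67 in every row, and Hk1 ranges from -0.14 to 2.31.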

How the data were processed

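Filtered single-cell matrices of 1 library per group (3′ chemistry) were used. The deposited values are raw UMI counts per feature and barcode. According to the submitters' processing notes they come from Cell Ranger 7.1.0 and GRCm39. The matrix headers name the same program, and the methods place removal of free RNA at a later step, so the counts were taken as uncorrected. Standard parameters are stated apart from expected cells and chemistry, and none for intronic reads, which this version counts by default. Counts of the 2 libraries were summed by hormone class and given as CPM. Positions and promoters came from GENCODE M39 on GRCm39, which held 22317 of 22383 features by identifier and all 6 members. The members, the gene list and the markers were chosen with earlier results of these data known. The text names the members, the genes that check the labels, listed pathway genes past the limit or among the 5 with most UMIs in the insulin class, and the 5 genes closest in pattern to Slc2a2 and to G6pc2 among genes at 10 CPM in any sum. Other genes named (Mafa beyond its rank, Ins1 in other classes) were added for context.

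Intervals are exact Poisson for levels, Clopper-Pearson for shares and conditional binomial for ratios of sums, all at 95% and for counting error only. The limit given for a count of 0 is the level of 3 UMIs. The ratio script was tested on simulated data. No doublets were removed in the values reported. As an alternative the highest Scrublet scores (scanpy 1.11.5) were removed, 334 and 231 barcodes. Other alternatives were a limit of 6000 or 1000 detected genes, 5% mitochondrial UMIs, a hormone limit of 300, single-hormone barcodes, the hormone-free scale, a mean over barcodes, and subtraction of a free RNA profile (4.2% and 1.81% of UMIs). Leaving out barcodes with markers of another type (20 UMIs per 10000, at least 3 markers), or with 100 insulin UMIs per 10000 in other classes, was chosen after seeing the data, as was leaving out the 2 barcodes richest in Hk1. Thinning drew 5000 UMIs per barcode. Scripts ran under Python 3.11.15, using scipy 1.17.1 for intervals, numpy 2.4.6 and pandas 2.3.3 for sums, and matplotlib 3.10.9 for figures.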

Additional observations from a re-analysis of the deposited data

Results flagged for a closer look

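Among members with at least 50 UMIs in each class compared, 2 had a ratio in another class that pointed opposite to that in the insulin class. Neither difference between classes was tested, and no share of all genes meeting the same rule is given for comparison. G6pc2 had a log2 ratio of 0.66 in the Ppy class and of -0.53 in the insulin class. Hk1 had a log2 ratio of -0.52 in the Ppy class and of 1.13 in the insulin class. Tbl1x, one of the targeted genes, stood at 103 and 367 CPM in the Ppy class, and Mafa at 22.2 and 0.906 CPM.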

How the results depend on the processing

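No paired analysis was possible because each group has 1 library. In the insulin class, Slc2a2 and Slc2a1 kept their direction under all 10 alternatives, G6pc2 stayed below 0 in 9 and Hk1 above 0 in 9. With fewer than 6000 genes the log2 ratios were -2.06 (Slc2a2), -0.52 (Slc2a1), -0.42 (G6pc2) and 2.31 (Hk1), and under 5% mitochondrial UMIs -2.35 (Slc2a2) and -0.49 (G6pc2). Single-hormone barcodes gave -1.67 (Slc2a2), 0.00 (G6pc2) and 1.52 (Hk1), and the hormone-free scale -2.97, -0.63, -0.98 and 0.68 in the order Slc2a2, Slc2a1, G6pc2, Hk1. A mean over barcodes gave -0.46 (Slc2a1) and -0.14 (Hk1), a hormone limit of 300 gave 1.66 and free RNA subtraction 1.98 (Hk1). Leaving out the 2 barcodes richest in Hk1 in each library gave 1.01, and in the library labelled TBL/RβKO alone 0.92. Genes called higher numbered 1742, with 875 under 6000 genes, 1099 in single-hormone barcodes, 937 on the hormone-free scale and 2664 with a minimum of 10 UMIs. Genes called lower numbered 352, with 601 under 6000 genes, 228 at a hormone limit of 300 and 731 on the hormone-free scale.

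Of 214 other values 171 moved by less than counting error, 29 moved further and 14 reversed. Free RNA subtraction reversed Slc2a2 in the Gcg (1.49) and Ppy (2.66) classes and G6pc2 in the Gcg (0.39) and Sst (0.03) classes. Hk1 in the Ppy class became 0.23 in single-hormone barcodes and 0.00 with fewer than 100 insulin UMIs. Hk2 in the insulin class became -0.91 under 6000 genes, -0.27 as a mean over barcodes and -0.91 without high doublet scores. Hk3 in the insulin class became 0.41 at a hormone limit of 300 and 1.16 without barcodes with markers of another type, and in the Sst class 0.12 and 0.06 with those and 0.09 without high doublet scores. The causes were not tested. Some ratios of Hk2 and Hk3 in the Sst and Ppy classes could not be computed, for want of UMIs. Depth limits Hk2 and Hk3, with under 100 UMIs in each insulin class sum.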
